A study of Rattus norvegicus with 91 samples.

Results

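Liver RNA on 3 arrays labelled 4 h was set against liver RNA on 4 arrays labelled control, to find which transcripts differed 4 h after methylprednisolone, a synthetic glucocorticoid. The 7 arrays were chosen by their titles and by no measured value, out of 47 arrays in the same time course, called the short course here, and 91 arrays in the series. The rats of all groups are labelled Wistar, and the 4 h arrays are labelled with a dose of 50 mg/kg. The control arrays carry the same treatment wording with time 0, so what the control rats received cannot be read from the labels. The labels state no route, vehicle, time of day, age or sex, and they do not say whether the replicates are separate animals. The p-values thus rest on array-to-array spread alone, part or all of which may be technical, and so few arrays limit how precisely a difference is known. The other groups used below are the 3 arrays at 1 h and the 3 arrays at 8 h of the short course, and 4 arrays at 6 h and 4 control arrays of a second, long course on another array design, all with the same dose in their labels.

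Glucocorticoids enter the cell and bind the glucocorticoid receptor, encoded by Nr3c1, which then acts in the nucleus as a transcription factor. In the liver the receptor is known for inducing enzymes that break down amino acids and feed glucose synthesis, such as tyrosine aminotransferase (Tat), and for restraining inflammatory genes. Most liver RNA comes from hepatocytes, with Kupffer cells (the resident macrophages), endothelial cells and stellate cells contributing the rest. In such bulk samples, fewer cells of a type and less RNA per cell cannot be told apart.

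The deposited values are scanner signals, 1 for each probe set (a group of short probes for a transcript), already scaled so that each of the 7 arrays has a 2% trimmed mean near 801. Differences were taken on log2(signal + 32), which understates the change of dim transcripts, and were tested for all 8740 probe sets with limma, with Benjamini-Hochberg adjustment and a threshold of 0.05 on the adjusted p. Each gene is represented by its brightest probe set, 4736 genes in all. The mean correlation of a 4 h array with all others of the course was 0.932 to 0.948, and that of a control array 0.932 to 0.951. None of the 11 measured hepatocyte markers was under a signal of 100 on all 7 arrays, and their summed signal was 123432 to 161317 at 4 h and 80817 to 271365 in the controls. Controls 3 and 4 stood apart from controls 1 and 2 in several plasma protein genes. The brightest probe set of Alb (albumin) read 14430, 6575 and 9063 at 4 h, and 0.152, 7879, 32410 and 23784 in controls 1 to 4. Hpx (hemopexin, the haem carrier of plasma) read 291, 122 and 48.5 at 4 h, and 629, 30, 24658 and 22171 in the controls. The cause of these readings was not tested, and no call below rests on either gene.

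At 4 h, 1004 probe sets passed the threshold against the controls, 586 of them higher and 418 lower, which is 11.5% of those tested. At an unadjusted p under 0.05 there were 2233. In 913 probe sets the call came with groups that did not overlap, 10.4% of those tested. Called or not, the groups did not overlap in 21.4% of probe sets. By genes, 342 were higher (7.22% of the genes tested) and 268 lower (5.66%), and the median gene differed by 0.08. The split between higher and lower depended on the scaling. It was 511 higher and 506 lower with quantile normalization, and 437 higher and 586 lower when the arrays were centred on their medians. The size of the count rested on single arrays: 547 probe sets passed without 4 h replicate 1, 473 without 4 h replicate 3 and 656 without control 4. The 24 genes described next have the largest changes among called genes whose groups did not overlap. Their lack of overlap thus follows from the choice. In these 24 genes, 4 h replicate 2 lay nearest the controls in 9 of the 12 that rose and 9 of the 12 that fell.

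The 12 largest rises among genes without overlap came from inflammatory mediators, transcription regulators and several genes best known from other tissues. The largest was that of Tgm1, which encodes a protein-crosslinking transglutaminase known from skin. Its signal was 2943, 828 and 2506 at 4 h, and 7.99, 428, 6.91 and 10.5 in controls 1 to 4. Control 2 stood far above the other controls and still below every 4 h array. The difference was 4.65 ± 1.33 (SE, adjusted p = 0.0192), and the call ended on leaving out 4 h replicate 1 or 3 or control 1, 3 or 4, with an adjusted p between 0.00675 and 0.0835 over 18 alternatives. It also ended with the replicate number as a block in the fit. Gucy2c encodes guanylate cyclase C, the intestinal receptor for guanylin. It read 2137, 1247 and 2375 at 4 h and 81.3, 272, 50.8 and 33.5 in the controls. All 3 arrays at 4 h lay above every control, by 4.01 ± 0.68 on average (adjusted p = 0.000283), and no alternative ended the call.

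Among the rises were 3 mediators of inflammation. S100a8 and S100a9 encode the paired calcium-binding proteins that neutrophils and monocytes carry in bulk. S100a8 read 1365, 300 and 2136 at 4 h and 6.19, 224, 29.8 and 45.7 in the controls. Control 2 came close to 4 h replicate 2, the lowest of the 4 h arrays, without overlap. The difference was 3.60 ± 0.89 (adjusted p = 0.00763), and without 4 h replicate 3 the call ended (adjusted p = 0.0699, in a range from 0.00317 over 18 alternatives). S100a9 read 1956, 908 and 1496 at 4 h and 99.5, 382, 147 and 155 in the controls, a difference of 2.78 ± 0.65 (adjusted p = 0.00491). Il1rn encodes the interleukin-1 receptor antagonist, which blocks interleukin-1 at its receptor. It read 1120, 656 and 2686 at 4 h and 44.2, 188, 85.9 and 47.1 in the controls. Again control 2 was the highest control and 4 h replicate 2 the lowest 4 h array, with a difference of 3.53 ± 0.75 (adjusted p = 0.00211).

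The remaining rises covered regulators, lipid enzymes and a nucleolar protein. Nop58, a core protein of the small nucleolar particles that guide ribosomal RNA methylation, had the smallest adjusted p of the 24 genes. It read 2028, 2068 and 1678 at 4 h and 340, 389, 141 and 145 in the controls, higher by 2.89 ± 0.40 (adjusted p = 3.44e-05). Cited2, a transcriptional coregulator that binds the coactivators CBP and p300, read 3253, 6841 and 3674 at 4 h and 1139, 449, 503 and 453 in the controls. All 3 of its probe sets passed, and the brightest differed by 2.82 ± 0.53 (adjusted p = 0.000731). Cebpd, a transcription factor of the acute-phase and glucocorticoid responses, read 1758, 532 and 4466 at 4 h and 171, 378, 219 and 167 in the controls. Its difference of 2.71 ± 0.79 (adjusted p = 0.022) passed in 2 of 3 probe sets. It did not pass without 4 h replicate 1, 4 h replicate 3, control 1 or control 4, with an adjusted p between 0.00937 and 0.188 over 18 alternatives. With the replicate number as a block Cebpd did not pass either. Pla1a, a phospholipase that acts on phosphatidylserine, read 3669, 2974 and 4248 at 4 h and 141, 1622, 590 and 279 in the controls, higher by 2.90 ± 0.57 (adjusted p = 0.00121). Fabp4, the fatty acid-binding protein of fat cells and macrophages, read 189, 211 and 490 at 4 h and 4.05, 14.5, 22.5 and 11.5 in the controls, higher by 2.76 ± 0.63 (adjusted p = 0.00376). The control readings of Fabp4 are dim, and the files give no detection call for them.

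The calls for Nos1ap and Ugcg were less firm. Nos1ap, an adaptor of neuronal nitric oxide synthase, read 731, 324 and 689 at 4 h and 13.7, 185, 43.6 and 34.8 in the controls, higher by 2.79 ± 0.94 (adjusted p = 0.0476). Its adjusted p ran between 0.0208 and 0.154 over 18 alternatives, and leaving out any of the 4 h arrays or control 1, 3 or 4 ended the call. So did an added constant of 16, median centring, the replicate number as a block, and leaving out the rescaled array at 6 h. Ugcg, the glucosylceramide synthase, read 660, 314 and 1309 at 4 h and 79.3, 295, 59.6 and 12.2 in the controls, higher by 2.64 ± 0.77 (adjusted p = 0.0226). Of its 3 probe sets 1 passed, and the call ended on leaving out 4 h replicate 1 or 3, control 3 or control 4 (adjusted p between 0.0069 and 0.151 over 18 alternatives). It also ended with the mean over its probe sets, with only the 7 arrays fitted, or with the replicate number as a block. In both genes control 2 was the highest control.

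**Figure D1:**
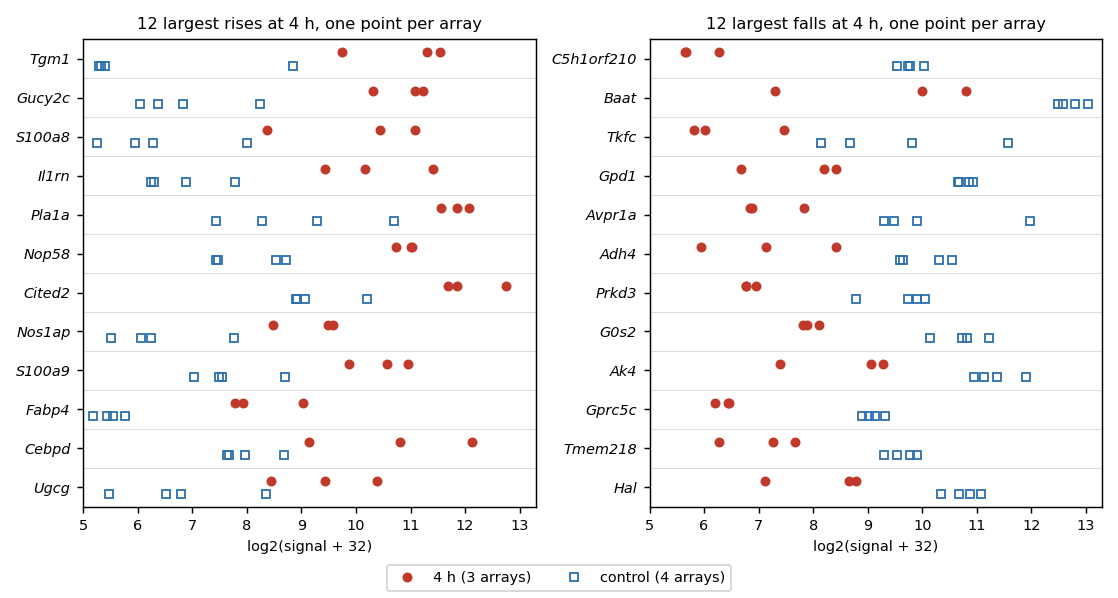
Each point is the log2(signal + 32) of a gene on an array, with the 3 arrays at 4 h as filled circles above and the 4 controls as open squares below, for the 12 largest rises (left) and the 12 largest falls (right). The 24 genes were picked among those whose arrays at 4 h and controls do not overlap. Control 2 of Tgm1, at a signal of 428, stands away from the other controls.

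Many of the 12 largest falls among genes without overlap were of metabolic enzymes that hepatocytes are known for. C5h1orf210 had the largest, with 18, 45.1 and 19 at 4 h and 844, 706, 1010 and 826 in the controls, a difference of -3.91 ± 0.81 (adjusted p = 0.00174). Baat encodes the enzyme that joins bile acids to glycine or taurine. It read 1746, 992 and 126 at 4 h and 6103, 5701, 8327 and 7104 in the controls. The 4 h arrays were all low but spread widely, with replicate 3 the lowest, and the difference was -3.36 ± 0.92 (adjusted p = 0.0145). Without 4 h replicate 3 it did not pass (adjusted p = 0.17, in a range from 0.00728 over 18 alternatives). Gpd1, the cytosolic glycerol-3-phosphate dehydrogenase that links glycolysis to triglyceride synthesis, read 263, 309 and 70.1 at 4 h and 1828, 1589, 1588 and 1911 in the controls. Its difference was -3.01 ± 0.86 (adjusted p = 0.0192), and here too the call ended without 4 h replicate 3 (adjusted p = 0.136, in a range from 0.00607 over 18 alternatives).

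Further falls touched fructose, alcohol, histidine and nucleotide metabolism. Tkfc, a kinase of fructose breakdown, read 24.3, 145 and 33.1 at 4 h and 3021, 252, 378 and 869 in the controls, with a difference of -3.12 ± 0.90 (adjusted p = 0.0204). That call ended on leaving out 4 h replicate 1 or 3, control 1 or control 4, with an adjusted p between 0.0103 and 0.0942 over 18 alternatives. It also ended with only the 7 arrays fitted or with the replicate number as a block. Adh4, an alcohol dehydrogenase, read 108, 311 and 29.7 at 4 h and 764, 739, 1458 and 1240 in the controls, with a difference of -2.85 ± 0.62 (adjusted p = 0.00253). Hal, which starts histidine breakdown, read 410, 373 and 107 at 4 h and 1851, 1273, 2120 and 1589 in the controls. The difference was -2.55 ± 0.53 (adjusted p = 0.00179), and 2 of its 3 probe sets passed in that direction. Ak4, a mitochondrial adenylate kinase, read 135, 587 and 499 at 4 h and 3776, 1943, 2211 and 2613 in the controls, with a difference of -2.76 ± 0.55 (adjusted p = 0.00125). The lowest control of Ak4 lay well above its highest 4 h array.

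Signalling genes and a lipolysis inhibitor made up most of the other falls. Avpr1a, the vasopressin receptor of hepatocytes, read 85.1, 196 and 82.1 at 4 h and 4010, 598, 685 and 923 in the controls. Control 1 stood above the rest, the difference was -2.99 ± 0.92 (adjusted p = 0.0298), and the call ended on leaving out 4 h replicate 1 or 3, control 1 or control 4 (adjusted p between 0.015 and 0.118 over 18 alternatives). With the replicate number as a block it ended as well. G0s2, an inhibitor of the lipase that starts triglyceride breakdown, read 204, 244 and 194 at 4 h and 2371, 1090, 1764 and 1663 in the controls, a difference of -2.79 ± 0.80 (adjusted p = 0.0192). The 4 h arrays agreed closely here, yet the call ended without 4 h replicate 1 or 4 h replicate 3 (adjusted p between 0.00227 and 0.0751 over 18 alternatives). Prkd3, a protein kinase, read 92.2, 76.9 and 77 at 4 h and 825, 411, 1022 and 921 in the controls (-2.79 ± 0.57, adjusted p = 0.00154). Gprc5c, an orphan receptor, read 54.5, 56.3 and 41.6 at 4 h and 609, 491, 441 and 527 in the controls (-2.72 ± 0.55, adjusted p = 0.00147). Tmem218, a membrane protein, read 121, 171 and 45.7 at 4 h and 710, 598, 923 and 845 in the controls (-2.56 ± 0.47, adjusted p = 0.00063). In these 3 genes no alternative ended the call.

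Tat, the classical liver target of glucocorticoids, and Nr3c1 were read as well. Tat read 9658, 9284 and 7992 at 4 h, and 3341, 9713, 8588 and 4209 in the controls. Controls 2 and 3 were as high as the 4 h arrays while controls 1 and 4 were low, and the groups overlapped. The difference of 0.61 ± 0.32 did not pass (adjusted p = 0.234). Nr3c1 read 189, 201 and 118 at 4 h and 294, 236, 247 and 265 in the controls. All 3 arrays at 4 h lay below all controls, but the difference of -0.56 ± 0.27 did not pass (adjusted p = 0.182).

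Promoters from RefSeq (build GRCr8) run from 250 bases before to 50 bases after the gene's start. They are shown for the 4 largest rises that the promoter table holds, beside that of Tat, the classical target. That table holds 6 of the 12 named rises, without Gucy2c and S100a8, the next largest after Tgm1. Capitals mark any match, on either strand, to TGTTCT, the core of the glucocorticoid response element, to the C/EBP site TTGCNNAA, or to the TATA box TATAAA. Tgm1 lies on chr15:33174218-33174517 (reverse strand), Il1rn on chr3:27520072-27520371, Pla1a on chr11:75825376-75825675, Nop58 on chr9:68614824-68615123 and Tat on chr19:54856354-54856653, all 4 on the forward strand.
Tgm1: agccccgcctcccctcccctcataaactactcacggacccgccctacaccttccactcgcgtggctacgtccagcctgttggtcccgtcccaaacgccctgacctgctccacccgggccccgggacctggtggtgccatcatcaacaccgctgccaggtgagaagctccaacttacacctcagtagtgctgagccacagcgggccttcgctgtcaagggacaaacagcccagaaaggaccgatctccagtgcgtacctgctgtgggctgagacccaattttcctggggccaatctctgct
Il1rn: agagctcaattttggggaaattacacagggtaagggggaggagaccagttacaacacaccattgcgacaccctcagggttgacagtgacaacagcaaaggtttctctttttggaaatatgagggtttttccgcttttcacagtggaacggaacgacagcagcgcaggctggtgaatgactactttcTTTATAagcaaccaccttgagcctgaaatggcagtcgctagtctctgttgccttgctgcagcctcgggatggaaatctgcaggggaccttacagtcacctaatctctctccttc
Pla1a: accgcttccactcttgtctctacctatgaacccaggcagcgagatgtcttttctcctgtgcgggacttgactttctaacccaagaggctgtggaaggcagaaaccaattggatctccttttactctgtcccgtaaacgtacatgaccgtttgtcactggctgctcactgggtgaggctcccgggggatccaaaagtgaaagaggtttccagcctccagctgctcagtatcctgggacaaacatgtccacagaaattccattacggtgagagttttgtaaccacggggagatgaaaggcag
Nop58: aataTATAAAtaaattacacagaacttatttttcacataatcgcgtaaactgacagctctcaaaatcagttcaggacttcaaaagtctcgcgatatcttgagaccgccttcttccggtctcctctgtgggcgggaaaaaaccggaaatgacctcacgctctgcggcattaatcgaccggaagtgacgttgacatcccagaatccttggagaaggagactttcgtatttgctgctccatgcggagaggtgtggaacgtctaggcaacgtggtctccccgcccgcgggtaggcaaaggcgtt
Tat: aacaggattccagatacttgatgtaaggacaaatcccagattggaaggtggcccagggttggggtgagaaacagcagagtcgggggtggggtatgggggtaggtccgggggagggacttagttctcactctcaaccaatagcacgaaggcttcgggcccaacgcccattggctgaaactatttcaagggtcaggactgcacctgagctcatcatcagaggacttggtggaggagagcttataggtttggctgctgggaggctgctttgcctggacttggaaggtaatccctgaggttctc
The core TGTTCT and the C/EBP site had no match in any of the 5 windows, and the full palindrome of the response element had none either. Of 33469 RefSeq promoters of this length, 20.7% held the core, 10.6% the C/EBP site and 0.0149% the full palindrome. The TATA box letters had 1 match in Il1rn, at base 187, and 1 in Nop58, at base 5, against 14.2% of all promoters with a match. No match says only that these letters are not in this window.

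Of 20 measured genes on a list of known glucocorticoid-induced genes, 7 rose and none fell, with a median difference of 1.02. That is 35% of the list, where 7.22% of all genes rose. The lists here and below were chosen with earlier results of these data known, so their shares are descriptive only. Without 4 h replicate 1 the count was 4. Nfkbia, whose protein keeps NF-kappaB out of the nucleus, read 1252, 1973 and 2420 at 4 h and 311, 447, 221 and 313 in the controls, higher by 2.42 ± 0.59 (adjusted p = 0.00727). Zfp36, which speeds the decay of cytokine messages, read 3587, 3598 and 4397 at 4 h and 1636, 1844, 934 and 1021 in the controls, higher by 1.54 ± 0.35 (adjusted p = 0.00361). The 3 arrays at 4 h were close together and well above the controls for Zfp36, and likewise for Klf9, a transcription factor that answers to the receptor directly (3127, 3191 and 2736 at 4 h, 1525, 1721, 703 and 933 in the controls). Tdo2, the first enzyme of tryptophan breakdown, read 16969, 10081 and 13281 at 4 h and 4760, 4147, 8499 and 5775 in the controls, higher by 1.23 ± 0.32 (adjusted p = 0.0114). The other members that rose were Anxa1, at 1.01, and Cebpd and Il1rn, described above. Tdo2 did not pass without 4 h replicate 1, and Anxa1 not without 4 h replicate 1 or 3 or control 4. Here and below, brackets give the range of the adjusted p when each array of the groups compared was left out, which was (0.008 to 0.0814) for Tdo2 and (0.0182 to 0.0748) for Anxa1. Igfbp1, a binding protein of insulin-like growth factors, did not pass at 2.15 ± 1.08 (adjusted p = 0.205), with 7948, 4440 and 12053 at 4 h and control 2 at 9377, and it did not pass without control 2 either.

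Of 38 measured chemokines, cytokines and inflammatory mediators, 10 rose and none fell, 26.3% of the list against the same 7.22% of all genes, with a median difference of 1.00. Without 4 h replicate 3 the count was 6. Il1rn and Nfkbia, which rose, are on the glucocorticoid-induced list as well, so the counts of these lists are not separate. Cd14, the coreceptor for bacterial lipopolysaccharide, read 8383, 7760 and 14233 at 4 h and 1897, 1910, 1962 and 1286 in the controls, higher by 2.47 ± 0.44 (adjusted p = 0.000462). All controls of Cd14 lay near each other and far below the 4 h arrays. Il1r1, the signalling receptor of interleukin-1, differed by 2.31 ± 0.56 (adjusted p = 0.00692), and Il1r2, its decoy receptor, by 1.58 ± 0.41 (adjusted p = 0.00968). Ccl3, a chemokine for monocytes, differed by 2.37 ± 0.79 (adjusted p = 0.0476), Nfkb1, a subunit of NF-kappaB, by 1.63 ± 0.54 (adjusted p = 0.0462), and Il10, an anti-inflammatory cytokine, by 0.99 ± 0.24 (adjusted p = 0.00729). The list thus holds agonists, receptors and inhibitors among the genes that rose. Tnf and Il6 did not pass, at 0.26 and 0.69. Ccl3 lost its call without 4 h replicate 1 or 3 or control 1 or 4 (0.0365 to 0.238), and Nfkb1 without any of the 4 h arrays or control 1, 3 or 4 (0.0327 to 0.23). Il1r2 lost it without 4 h replicate 3 (0.0106 to 0.0795) and Il10 without 4 h replicate 1 (0.00801 to 0.0635).

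Several of these genes also serve as markers of blood and resident myeloid cells, so the marker counts are not separate from the list above. Of 9 measured neutrophil markers 4 rose (S100a8, S100a9, Il1r2 and Mmp8), 44.4% where 7.22% of all genes rose. Without 4 h replicate 3 there were 2. S100a8, S100a9 and Il1r2 are on the inflammatory list as well. Their summed signal was 15388 to 22872 at 4 h and 2050 to 26487 in the controls, most of it from Lcn2, which read 17925, 12706 and 13957 at 4 h and 1069, 13794, 25565 and 1679 in the controls. Itgam stayed under 100 on all 7 arrays, and Cxcr2, the neutrophil chemokine receptor, read 96.8, 93.4 and 164 at 4 h and 25.7, 59.5, 6.7 and 47.2 in the controls. Mmp8, a neutrophil collagenase, was dim as well, with 141, 110 and 107 at 4 h and 15.4, 13.9, 44.8 and 11.1 in the controls. Its call ended without 4 h replicate 1 (0.0137 to 0.064). Of 7 Kupffer cell and macrophage markers 2 rose (28.6%), Lyz2 and Cd14, the latter also on the inflammatory list, and the median was 0.17. Lyz2 did not pass without any of the 4 h arrays or without control 1, 3 or 4. The summed signal of the 7 markers was 19649 to 25453 at 4 h and 9484 to 13389 in the controls. Clec4f, the lectin that marks Kupffer cells in rodents, read 895, 1212 and 418 at 4 h and 1473, 1603, 1885 and 2223 in the controls and did not pass (-1.17 ± 0.45, adjusted p = 0.0886). The part of cell numbers in the inflammatory genes was not tested.

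Other cell types gave few calls. Of 9 endothelial markers 2 rose and 1 fell, 22.2% and 11.1%, where 7.22% of all genes rose and 5.66% fell. The fall did not pass without 4 h replicate 3, and 1 rise was left without any of the 4 h arrays or without control 1 or 4. Lyve1, a hyaluronan receptor of liver sinusoids, differed by 1.35 ± 0.28 (adjusted p = 0.00179), and Kdr, the main receptor of vascular endothelial growth factor, by -1.41 ± 0.36 (adjusted p = 0.00928). Among 14 T and natural killer cell markers Gzmb alone rose (not without 4 h replicate 1 or 3 or control 4), and among 7 adipocyte markers Fabp4 alone. None passed among 9 stellate cell, 9 cholangiocyte, 4 erythroid and 11 hepatocyte markers, nor did Cd79b, the sole B cell marker measured, while 1 hepatocyte marker fell without control 1.

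Of 28 acute-phase genes 5 rose and none fell, while the list's median was -0.25. That is 17.9% of the list, where 7.22% of all genes rose. Without 4 h replicate 3 the count was 3, and without control 2 there was 1 fall. A2m, the plasma protease inhibitor alpha-2-macroglobulin, a strong acute-phase protein in the rat, read 12127, 9824 and 10767 at 4 h and 1010, 2699, 1540 and 4291 in the controls, higher by 2.38 ± 0.46 (adjusted p = 0.000885). Lbp, the lipopolysaccharide-binding protein, rose by 1.81 ± 0.46 (adjusted p = 0.00868) although control 2, at 7339, overlapped the 4 h arrays. The call for Lbp ended without 4 h replicate 1 and when only the 7 arrays were fitted, with adjusted p-values of 0.0536 and 0.176. The other 3 were the receptor chains Il6st and Il6r and the transcription factor Stat3, through which interleukin-6 acts, at 1.38, 1.22 and 1.37. Il6st did not pass without 4 h replicate 3 (0.00994 to 0.0717), nor Stat3 without 4 h replicate 3 or control 3 (0.00157 to 0.0772). The plasma proteins Kng2, Hpx and Hp did not pass. Kng2, a kininogen, had the widest gap of the list, with 781, 163 and 115 at 4 h and 10029, 2951, 27836 and 22836 in the controls (-5.36, adjusted p = 0.109), and all 4 controls lay above every 4 h array. Hp, haptoglobin, read 543, 416 and 463 at 4 h and 368, 463, 11059 and 8621 in the controls, high in controls 3 and 4 alone.

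**Figure D2:**
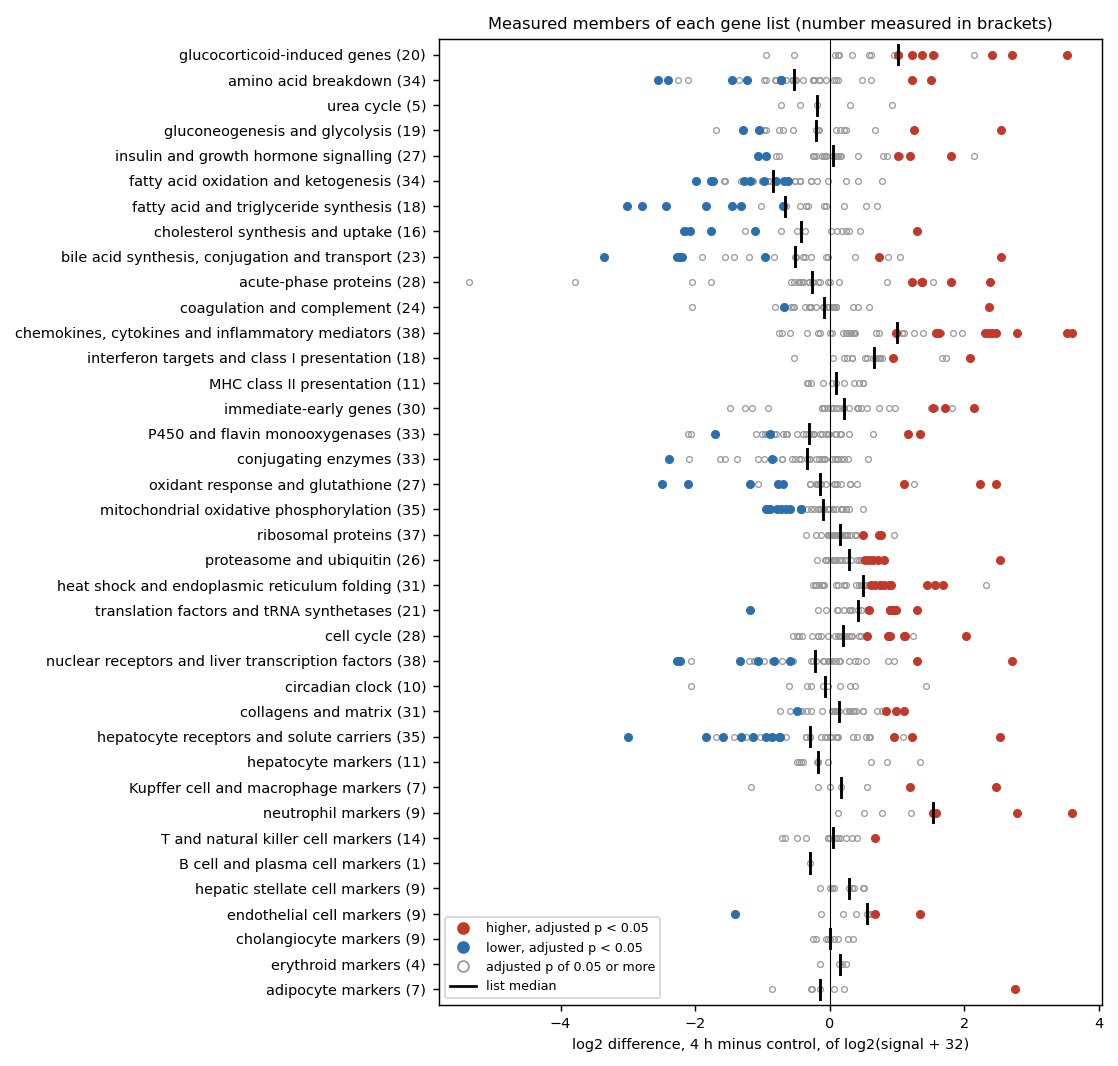
Each point is a measured gene of a list at its log2 difference between 4 h and the controls, filled where the adjusted p is under 0.05 (red higher, blue lower) and open otherwise, and the black bar is the list's median. The median is 1.02 for glucocorticoid-induced genes and -0.84 for fatty acid oxidation, against 0.08 for all genes.

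Of 34 measured genes of fatty acid oxidation and ketogenesis 9 fell and none rose, 26.5% of the list against 5.66% of all genes, with a median of -0.84. The count was 5 without 4 h replicate 1, 4 h replicate 2 or control 1, and 3 without 4 h replicate 3. Bdh1, the last enzyme of ketone body synthesis, read 909, 1228 and 864 at 4 h and 3161, 3755, 2357 and 4963 in the controls (-1.76 ± 0.36, adjusted p = 0.00147). Acaa2, a thiolase of mitochondrial beta-oxidation, read 6469, 5240 and 5609 at 4 h and 11606, 12019, 11334 and 10400 in the controls (-0.97 ± 0.24, adjusted p = 0.00787). The controls of Acaa2 agreed closely, and all of them lay above the 4 h arrays. The SE comes from the spread within all times of the short course, not from these arrays alone. Pdk2 and Pdk4, the kinases that shut off pyruvate dehydrogenase, differed by -1.73 ± 0.47 (adjusted p = 0.0143) and -1.98 ± 0.64 (adjusted p = 0.0396). Pdk4 was spread widely, at 313, 18.5 and 139 at 4 h and 425, 1593, 365 and 318 in the controls, and its call ended without 4 h replicate 2 or 3 or control 1 or 2 (adjusted p between 0.0222 and 0.271 over 17 alternatives). Cpt1a, which admits fatty acids to mitochondria, differed by -1.18 ± 0.39 (adjusted p = 0.0408). Pdk2 lost its call without 4 h replicate 1 or 3 (0.00741 to 0.104), and Cpt1a without any of the 4 h arrays or control 2 or 3 (0.0199 to 0.163).

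Of 18 genes of fatty acid and triglyceride synthesis 7 fell and none rose, with a median of -0.67. That is 38.9% of the list, where 5.66% of all genes fell. The count was 2 without 4 h replicate 1 and 1 without 4 h replicate 3. Besides Gpd1 and G0s2, Gpam, the enzyme that starts glycerolipid synthesis, read 156, 115 and 120 at 4 h and 1110, 569, 774 and 995 in the controls (-2.43 ± 0.71, adjusted p = 0.0213). Srebf1, the transcription factor that drives lipogenic genes, read 354, 337 and 176 at 4 h and 2024, 473, 953 and 1430 in the controls (-1.84 ± 0.40, adjusted p = 0.00253). The call for Gpam ended without any of the 4 h arrays or control 1 or 4 (0.0194 to 0.0803), although the groups did not overlap. For Srebf1 control 2 came nearest to the 4 h arrays. Acly, which makes cytosolic acetyl-CoA, differed by -1.45 ± 0.43 (adjusted p = 0.0224), with control 2, at 2472, among the 4 h arrays. The Acly call ended without 4 h replicate 1 or 3 or control 1 or 4 (0.00198 to 0.119). Fasn, the fatty acid synthase, did not pass at -0.65.

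Of 16 genes of cholesterol synthesis and uptake 5 fell and 1 rose, with a median of -0.43. That is 31.2% and 6.25% of the list, where 5.66% of all genes fell and 7.22% rose. The count of falls was 1 without 4 h replicate 1, 2 without 4 h replicate 3 and 3 without control 4, and the rise did not pass without 4 h replicate 1 or 3. Fdft1, the squalene synthase, read 444, 1182 and 395 at 4 h and 3145, 1549, 2815 and 4252 in the controls, and all 4 of its probe sets passed (-2.16 ± 0.42, adjusted p = 0.00112). Nsdhl, Msmo1 and Mvk, enzymes of the same route, differed by -2.15 ± 0.62, -2.08 ± 0.55 and -1.76 ± 0.53. All 3 lost their calls without 4 h replicate 1 or 3, Nsdhl also without control 1 or 4 (0.0107 to 0.14) and Mvk also without control 4 (0.0218 to 0.12), and for Msmo1 the range was 0.0052 to 0.0806. Lss, the lanosterol synthase of the same route, was higher, at 2116, 1218 and 1925 at 4 h and 559, 765, 544 and 874 in the controls (1.30 ± 0.34, adjusted p = 0.0117).

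The bile acid list, of 23 measured genes, had 5 that fell and 2 that rose, 21.7% and 8.7%, with a median of -0.52. Of all genes 5.66% fell and 7.22% rose, so the share of rises was near that of all genes. The count of falls was 3 without 4 h replicate 1 or control 3, and 2 without 4 h replicate 3. Nr1h4, the bile acid receptor FXR, read 138, 358 and 255 at 4 h and 1875, 1266, 1362 and 769 in the controls (-2.27 ± 0.38, adjusted p = 0.000212). Hsd3b7, a dehydrogenase of bile acid synthesis, read 608, 1308 and 558 at 4 h and 3952, 3465, 3467 and 3932 in the controls (-2.23 ± 0.31, adjusted p = 3.44e-05). Both sets of controls lay far above the 4 h arrays, and for Hsd3b7 they were nearly level. Cyp7b1, an oxysterol hydroxylase of the alternative bile acid pathway, went up, with 1037, 1062 and 1174 at 4 h and 179, 184, 155 and 131 in the controls (2.54 ± 0.51, adjusted p = 0.00147). Cyp27a1, the mitochondrial sterol hydroxylase that opens the same alternative pathway, read 6851, 7222 and 6930 at 4 h and 4302, 4196, 3848 and 4400 in the controls (0.74 ± 0.16, adjusted p = 0.00251). Cyp7a1, which opens the classical pathway, overlapped at 255, 1308 and 157 at 4 h and 1865, 383, 2103 and 3394 in the controls and did not pass (-1.89 ± 1.39, adjusted p = 0.433).

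Amino acid breakdown, which the drug is known to raise, held more falls than rises. Of 34 measured genes 6 fell and 2 rose, 17.6% and 5.88%, with a median of -0.53. Among all genes 5.66% fell and 7.22% rose. The count of falls was 1 without 4 h replicate 3 and 3 without control 3 or control 4, and no member rose without 4 h replicate 1, while 1 did without 4 h replicate 3, control 1 or control 4. Got1, the cytosolic aspartate aminotransferase, differed by 1.51 ± 0.47 (adjusted p = 0.0325), with 8478, 3193 and 9417 at 4 h and 1640, 3004, 3394 and 1399 in the controls. In Got1 4 h replicate 2 lay among the controls. Its call ended without 4 h replicate 1 or 3 or control 1 or 4 (0.0116 to 0.183). Besides Hal, the falls included Kynu, a kynureninase (-2.40 ± 0.81, adjusted p = 0.0491), Cth, which makes cysteine (-1.45 ± 0.45, adjusted p = 0.0298), and Gls2, the liver glutaminase (-1.23 ± 0.28, adjusted p = 0.00343). Cth did not pass without 4 h replicate 1 or 3 or control 1, 3 or 4 (0.0139 to 0.121), nor Gls2 without 4 h replicate 3 (0.00162 to 0.0568). The Kynu call ended under 10 of 19 alternatives, among them without 4 h replicate 1 or 3 or control 1, 3 or 4 (adjusted p between 0.016 and 0.254 over 18 alternatives). None of the 5 measured urea cycle genes passed.

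Of 19 genes of gluconeogenesis and glycolysis 2 rose and 2 fell, 10.5% each way, not far from the 7.22% and 5.66% of all genes. No member fell without 4 h replicate 1, 4 h replicate 3, control 1 or control 3, 1 fell without 4 h replicate 2 or control 4, and 1 rose without 4 h replicate 3. Slc2a1, a glucose transporter that the liver holds at low level, read 684, 1307 and 1840 at 4 h and 123, 159, 203 and 233 in the controls (2.55 ± 0.68, adjusted p = 0.0124). Pfkl, the liver phosphofructokinase, differed by 1.25 ± 0.26 (adjusted p = 0.00179). Khk, the fructose kinase, and Pc, the pyruvate carboxylase that starts gluconeogenesis, differed by -1.29 ± 0.43 (adjusted p = 0.044) and -1.05 ± 0.34 (adjusted p = 0.0375). Pck1, the gluconeogenic enzyme PEPCK, did not pass at -0.95. Slc2a1 lost its call without 4 h replicate 3 (0.0194 to 0.0852), Khk without any of the 4 h arrays or control 1, 3 or 4 (0.0119 to 0.17), and Pc without 4 h replicate 1 or 3 or control 1 or 3 (0.0183 to 0.252). Khk also lost it with quantile normalization or the replicate number as a block, and both Khk and Pc with only the 7 arrays fitted. Among 27 genes of insulin and growth hormone signalling 3 rose and 2 fell, 11.1% and 7.41%, again not far from the shares of all genes. The count of rises was 1 without 4 h replicate 1, 4 h replicate 3, control 3 or control 4, and that of falls was 0 without 4 h replicate 3 and 1 without 4 h replicate 2 or control 1, 3 or 4. Ptpn1, a phosphatase that dampens the insulin receptor, read 5897, 4056 and 4625 at 4 h and 1018, 1889, 1464 and 1200 in the controls (1.80 ± 0.42, adjusted p = 0.005). Ghr, the growth hormone receptor, read 4280, 3143 and 3643 at 4 h and 9220, 5579, 8378 and 5670 in the controls (-0.94 ± 0.25, adjusted p = 0.013). In both genes the 4 h arrays and the controls did not overlap. The Ghr call ended without 4 h replicate 2 or 3 (0.00817 to 0.0601).

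Hepatocyte receptors and solute carriers gave 9 falls and 3 rises of 35. These are 25.7% and 8.57% of the list, against 5.66% and 7.22% of all genes. The count of falls was 2 without 4 h replicate 1 or 4 h replicate 3, 5 without control 1 and 4 without control 4, and that of rises was 1 without control 3. Adra1b, an adrenaline receptor, differed by -1.84 ± 0.50 (adjusted p = 0.0138), Aqp8, a water channel, by -1.58 ± 0.39 (adjusted p = 0.00779), and Slc29a1, a nucleoside transporter, by -1.32 ± 0.26 (adjusted p = 0.00136). Slc7a1, the carrier of cationic amino acids, read 344, 146 and 383 at 4 h and 24, 24.1, 19.1 and 15.1 in the controls (2.53 ± 0.78, adjusted p = 0.0311). Adra1b did not pass without 4 h replicate 1 or 3 or control 4 (0.0136 to 0.0719), Aqp8 without 4 h replicate 1 (0.00505 to 0.0534), or Slc7a1 without 4 h replicate 1 or 3 or control 1, 3 or 4 (0.0328 to 0.134). Nuclear receptors and liver transcription factors gave 6 falls and 2 rises of 38. That is 15.8% and 5.26% of the list, where 5.66% of all genes fell and 7.22% rose. There were 3 falls without 4 h replicate 3, no rise without 4 h replicate 1, 4 h replicate 3 or control 1, and 1 rise without control 3 or control 4. Rxrg, a retinoid X receptor, read 426, 440 and 419 at 4 h and 3190, 1727, 1306 and 2791 in the controls (-2.23 ± 0.54, adjusted p = 0.00625). Nr1h3, the oxysterol receptor LXR alpha, differed by -1.33 ± 0.32 (adjusted p = 0.00642) and Foxa2, a liver transcription factor, by -1.06 ± 0.27 (adjusted p = 0.0103). Nr1h3 lost its call without 4 h replicate 3 (0.00499 to 0.063) and Foxa2 without 4 h replicate 2 (0.00893 to 0.055). None of the 10 clock genes passed, and 1 rose without control 1.

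Of 31 heat shock and endoplasmic reticulum folding genes 10 rose and none fell, with a median of 0.50. That is 32.3% of the list, where 7.22% of all genes rose. The count was 2 without 4 h replicate 1 and 6 without 4 h replicate 3, control 1 or control 4. Hsph1, a large heat shock protein, read 3391, 2471 and 1698 at 4 h and 791, 1249, 818 and 489 in the controls (1.57 ± 0.35, adjusted p = 0.0034). Dnajb9, a cochaperone of the endoplasmic reticulum, read 4190, 3214 and 2453 at 4 h and 894, 1781, 749 and 743 in the controls (1.69 ± 0.45, adjusted p = 0.0113). The Dnajb9 call ended without 4 h replicate 1 (0.00427 to 0.0704). Of 21 translation factors and tRNA synthetases 7 rose and 1 fell, 33.3% and 4.76%, against 7.22% and 5.66% of all genes. The count of rises was 4 without 4 h replicate 1, control 3 or control 4, and 3 without 4 h replicate 3, where the fall did not pass either. Eif4e, the cap-binding protein, differed by 0.99 ± 0.25 (adjusted p = 0.00909). Of 26 proteasome and ubiquitin genes 6 rose, 23.1% of the list against 7.22% of all genes. Among them was the ubiquitin-conjugating enzyme Ube2g2, at 1670, 1763 and 1859 at 4 h and 223, 489, 339 and 155 in the controls (2.53 ± 0.41, adjusted p = 0.000196). The proteasome count was 2 without 4 h replicate 3, without control 4 or with the arrays centred on their medians, and 3 without 4 h replicate 1, 4 h replicate 2 or control 3. Ribosomal proteins gave 3 rises of 37, 8.11%, near the 7.22% of all genes, and 1 rise without 4 h replicate 1, 4 h replicate 3 or control 3.

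Of 27 oxidant response genes 3 rose and 5 fell, 11.1% and 18.5%, against 7.22% and 5.66% of all genes. Hmox1, haem oxygenase 1, read 8225, 7063 and 8510 at 4 h and 1009, 2938, 1444 and 1775 in the controls (2.23 ± 0.44, adjusted p = 0.00132), and Sod2, the mitochondrial superoxide dismutase, differed by 2.48 ± 0.51 (adjusted p = 0.00157). Gclm, the modifier subunit of the enzyme that starts glutathione synthesis, read 89.3, 349 and 297 at 4 h and 2376, 1044, 1272 and 1087 in the controls (-2.49 ± 0.57, adjusted p = 0.00429). It did not pass without 4 h replicate 1 (0.0047 to 0.0551). No oxidant response gene fell without 4 h replicate 1, while 1 fell without 4 h replicate 3 and 2 without control 1. Of 35 genes of mitochondrial oxidative phosphorylation 9 fell, each by less than a log2 unit, and none rose, with a median of -0.10. That is 25.7% of the list, where 5.66% of all genes fell. The count was 5 without 4 h replicate 1 or control 4, and 4 without 4 h replicate 3. Atp5po, a stalk subunit of ATP synthase, read 3039, 4406 and 3487 at 4 h and 6908, 5307, 7449 and 7515 in the controls (-0.90 ± 0.18, adjusted p = 0.00164).

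Of 28 cell cycle genes 6 rose and none fell, and 3 rose without 4 h replicate 1. The 6 are 21.4% of the list, where 7.22% of all genes rose. Ccng1, cyclin G1, read 1523, 1804 and 2829 at 4 h and 575, 773, 350 and 291 in the controls (2.02 ± 0.42, adjusted p = 0.00171), and Cdk7, the kinase that activates other cyclin-dependent kinases, differed by 1.11 ± 0.19 (adjusted p = 0.000283). Other lists had shares near those of all genes, of which 7.22% rose and 5.66% fell. Of 30 immediate-early genes 3 rose (Klf6, Rhob and Zfp36), with 1 rise without 4 h replicate 3, and 2 rises and 1 fall with quantile normalization or median centring. Rhob did not pass without 4 h replicate 3 (0.00266 to 0.0585), and Klf6 not without any of the 4 h arrays or control 1, 3 or 4 (0.0282 to 0.205). Of 33 P450 and flavin monooxygenase genes 2 rose and 2 fell, with no fall without 4 h replicate 1, 4 h replicate 3 or control 1, 3 or 4, 1 rise and 1 fall without 4 h replicate 2 and 4 falls without control 2. Of 33 conjugating enzymes 2 fell, with 6 falls without control 2 and 1 without 4 h replicate 1, 4 h replicate 2 or control 1, 3 or 4. Among 24 coagulation and complement genes Plaur rose and Proc fell; Plaur did not pass without 4 h replicate 1 or 3 or control 1, 3 or 4, and 2 genes fell without control 1. Por, the reductase that feeds electrons to P450 enzymes, read 4411, 4856 and 3487 at 4 h and 1700, 1631, 1574 and 1648 in the controls (1.35 ± 0.32, adjusted p = 0.00516). Gstt2, a glutathione transferase, differed by -2.39 ± 0.51 (adjusted p = 0.00243). Interferon targets gave 2 rises of 18, Gbp2 and Psme2, with none without 4 h replicate 3 and 1 without control 1. Collagens and matrix genes gave 3 rises and 1 fall of 31, with no rise without 4 h replicate 3, 1 without control 3, no fall without 4 h replicate 1 or 3 or control 2, 3 or 4, and 2 falls without 4 h replicate 2. Of 11 genes of MHC class II presentation none passed.

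Against the 1 h arrays, 69 probe sets passed at 4 h, 47 higher and 22 lower, 0.789% of those tested, and 1110 had an unadjusted p under 0.05. Gucy2c differed by 4.17 ± 0.73 (adjusted p = 0.00266), with 2137, 1247 and 2375 at 4 h and 78.8, 74.4 and 65.4 at 1 h. Nop58 differed by 2.09 ± 0.43 (adjusted p = 0.0103), with 454, 529 and 319 at 1 h. Both genes were at the level of the controls or little above it at 1 h. Apex1, a DNA repair endonuclease, read 1966, 2400 and 1798 at 4 h and 600, 834 and 444 at 1 h (1.70 ± 0.29, adjusted p = 0.00257), and Nek7, a protein kinase, read 2241, 2512 and 2976 at 4 h and 660, 987 and 918 at 1 h (1.57 ± 0.34, adjusted p = 0.0172). Ppil3, a peptidyl-prolyl isomerase, differed by 2.20 ± 0.51 (adjusted p = 0.0284). Nop58 did not pass without 4 h replicate 1 or 2 or 1 h replicate 3 (0.0112 to 0.0878), and Nek7 and Ppil3 not without any of the 4 h arrays or 1 h replicate 1 or 3, (0.0174 to 0.143) and (0.0053 to 0.19). The calls for Gucy2c and Apex1 held without each of these 6 arrays.

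The largest fall against 1 h was that of Il1a, interleukin-1 alpha, with 616, 235 and 234 at 4 h and 1949, 3676 and 2607 at 1 h (-2.91 ± 0.50, adjusted p = 0.00257). Its control readings were 527, 750, 514 and 466, so the 4 h arrays overlapped the controls while the 1 h arrays stood above both. Fdft1 read 444, 1182 and 395 at 4 h and 3505, 2182 and 2399 at 1 h (-2.09 ± 0.45, adjusted p = 0.0164). Bmp2k, a protein kinase, differed by -1.99 ± 0.40 (adjusted p = 0.00905), Nrp1, a coreceptor of vascular endothelial growth factor, by -1.94 ± 0.37 (adjusted p = 0.00652), and Lama3, a laminin chain, by -1.88 ± 0.47 (adjusted p = 0.049). Fdft1 did not pass without 4 h replicate 1 or 3 or 1 h replicate 1 or 3 (0.0151 to 0.14), nor Bmp2k (0.0053 to 0.0681) and Nrp1 (0.00417 to 0.0593) without 4 h replicate 1 or 1 h replicate 1 or 3. Lama3 did not pass without any of the 4 h arrays or 1 h replicate 1 or 3 (0.0202 to 0.224), while the Il1a call held throughout. The count of 69 depended on single arrays and ran from 13 (without 1 h replicate 3) to 194 (without 1 h replicate 2), with 20, 34 and 25 without 4 h replicates 1, 2 and 3 and 26 without 1 h replicate 1.

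Against the 8 h arrays 3 probe sets passed, 2 higher and 1 lower, 0.0343% of those tested, with 651 at an unadjusted p under 0.05. Gch1, the first enzyme of tetrahydrobiopterin synthesis, read 4654, 5939 and 5162 at 4 h and 1945, 1454 and 3347 at 8 h (1.29 ± 0.24, adjusted p = 0.0187). Dhcr7, the last enzyme of cholesterol synthesis, read 526, 1041 and 1023 at 4 h and 3518, 2155 and 2292 at 8 h (-1.61 ± 0.29, adjusted p = 0.0185). The third probe set has no single gene symbol. Gch1 did not pass without 4 h replicate 1 or 2 or 8 h replicate 1 or 2 (0.000624 to 0.224), nor Dhcr7 without 4 h replicate 1 or 8 h replicate 1 (0.0261 to 0.303). The count was 0 without 4 h replicate 1 or 8 h replicate 1, 2 without replicate 2 of either time, 10 without 4 h replicate 3 and 8 without 8 h replicate 3. A p that misses the threshold does not show that 4 h and 8 h were alike.

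Single arrays at other times looked like the 4 h arrays in many of the named genes. S100a8 read 331, 2670 and 463 at 1 h, and 394, 412 and 2412 at 8 h, so 1 h replicate 2 and 8 h replicate 3 stood above the other arrays of their times, as 4 h replicate 3 did. The same 2 arrays stood apart in Il1rn, with 321, 1202 and 525 at 1 h and 401, 552 and 2771 at 8 h, and in Cebpd, with 2117, 4787 and 1958 at 1 h and 607, 609 and 3511 at 8 h. Baat ran the other way on them, with 4345, 1156 and 5486 at 1 h and 4890, 1949 and 186 at 8 h. Gucy2c and Nop58 did not follow this pattern at 1 h, where all arrays were low. What these arrays share was not tested.

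**Figure D3:**
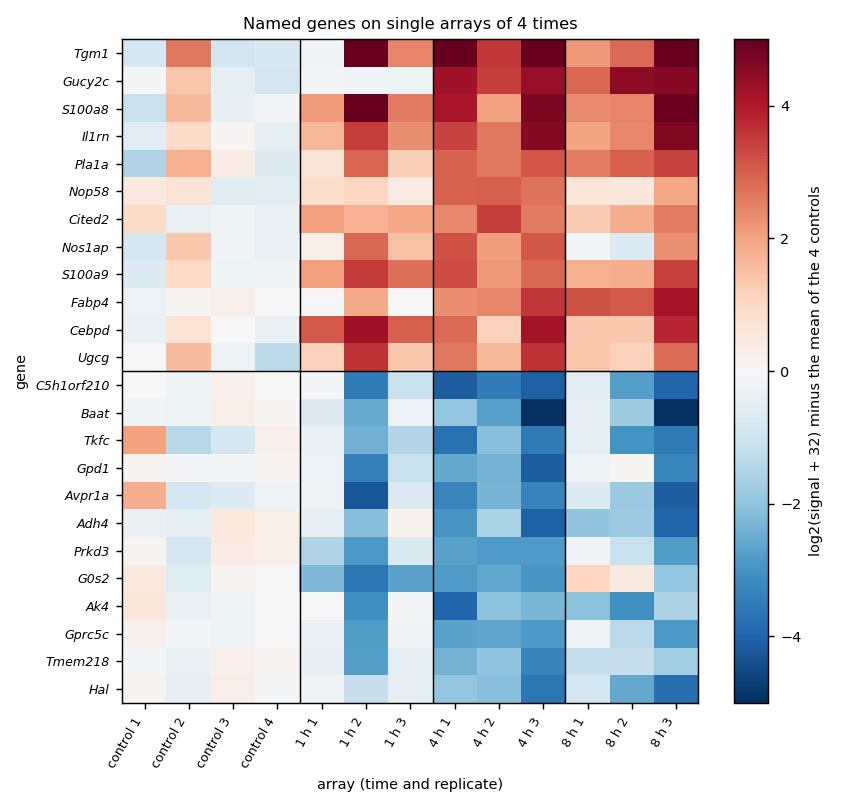
Colour gives log2(signal + 32) minus the mean of the 4 controls, with a column for each array at control, 1 h, 4 h and 8 h. The genes are the 12 largest rises (top) and the 12 largest falls (bottom) among those whose 4 h arrays and controls do not overlap. 1 h replicate 2 and 8 h replicate 3 carry deeper colours than the other arrays of their times in most of the genes, as with S100a8 at 2670 and 2412.

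Over the whole short course the mean differences from the same 4 controls showed different shapes. S100a8 stood 4.96 above the controls at 0.5 h, 1.26 above them at 0.75 h and 4.79 above them at 2 h, and after 3.60 at 4 h it was down to 0.58 by 18 h and at 1.55 by 48 h. For Cebpd the mean was 3.88 at 0.5 h, 3.64 by 2 h, 2.71 for the 4 h arrays and 0.53 by 18 h. Neither gene had its highest mean at 4 h. Gucy2c was at 1.89 at 0.25 h, -0.16 for the 1 h arrays, 2.31 by 2 h and 4.01 at 4 h. Then it was at 2.52 by 5 h, 4.21 by 5.5 h, 2.99 by 6 h, 3.91 by 12 h and 0.01 by 30 h. Nop58 had its highest mean at 4 h, with 2.89, but had been at 1.85 by 0.5 h and 0.80 by 1 h, and it was at 0.27 by 12 h. Baat was already at -1.42 by 0.5 h, then at -0.38 by 0.75 h and -1.14 for the 1 h arrays. It was at -3.36 at 4 h, -3.51 by 5 h and -0.14 by 12 h. C5h1orf210, the largest of the named falls, was at -2.28 by 0.25 h and -0.27 by 0.75 h. Its single arrays at 0.25 h ran from -3.58 to -0.35. Tat was at 0.61 for the 4 h arrays, 1.11 by 5 h, 0.46 by 6 h and -0.49 by 12 h. The groups at 2, 5, 12 and 30 h hold only 2 arrays each, which for Baat at 5 h lay at -5.43 and -1.58. All these time points share the controls, and apart from 1 h and 8 h no difference between them was tested.

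**Figure D4:**
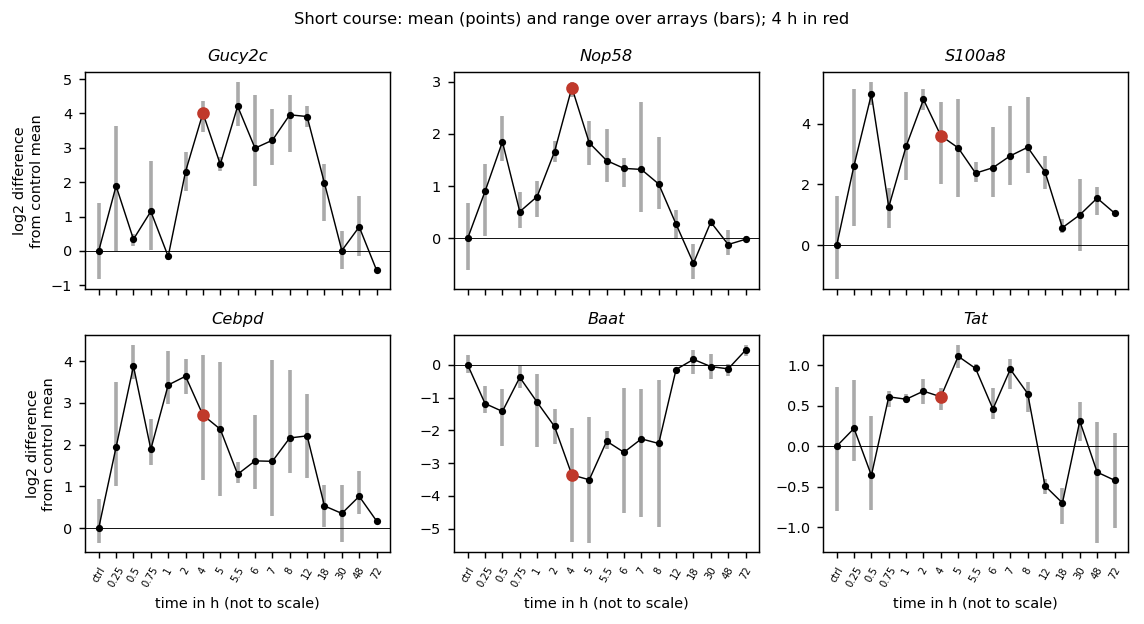
Mean log2 difference from the mean of the 4 controls (points) and the range over arrays (grey bars) at each time of the short course, with 4 h in red and times spaced evenly, not to scale. Nop58 has its highest mean at 4 h, at 2.89, after 1.85 at 0.5 h, and S100a8 and Cebpd have theirs at 0.5 h, at 4.96 and 3.88. Gucy2c has 1.89 at 0.25 h, 4.01 at 4 h and 3.91 at 12 h.

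The long course offers a reading in other arrays, at 6 h after the same labelled dose. It has no 4 h arrays, its array design differs, and it was scaled apart, so levels are not compared and the difference between the courses was not tested. At 6 h, 222 of 10411 genes were higher than its own controls (2.13%) and 145 lower (1.39%). Of the 342 genes higher at 4 h in the short course, 338 were measured there, and 233 of these (68.9%) had the same sign, where 43.9% of all 4527 genes on both designs were positive. In that direction 50 passed (14.8%, with 2.03% of the shared genes higher), and none passed in the opposite direction. Of the 268 genes lower at 4 h, 198 (73.9%) had the same sign. With 43.9% of the shared genes positive, more were negative to begin with. The shares of 68.9% and 73.9% thus have different baselines. Among the genes lower at 4 h, 30 passed in that direction (11.2%, with 1.44% of the shared genes lower), again with none opposite. The count of probe sets past the threshold at 6 h, 464, was 157 when only the 8 arrays were fitted and 257 without 6 h replicate 4.

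The named genes divided in this reading. Nop58 read 508, 355, 549 and 527 at 6 h and 166, 185, 167 and 196 in the long-course controls (1.28 ± 0.18, adjusted p = 1.23e-05), and Cited2 read 461, 501, 724 and 744 at 6 h and 223, 109, 356 and 289 in those controls (1.28 ± 0.22, adjusted p = 0.0002). Gucy2c did not pass (-0.02, adjusted p = 0.992), at 48.8, 43.2, 52.6 and 53.5 at 6 h and 22.7, 121, 30.3 and 57.2 in the controls, and S100a8, Il1rn and Tgm1 did not pass either. Of the falls, C5h1orf210, Adh4, Prkd3, Ak4, Gprc5c and Tmem218 passed in the same direction, with differences of -0.93, -1.15, -0.81, -1.09, -1.15 and -0.73. C5h1orf210 lost its call there without 6 h replicate 1 or 4 or control 1 or 4 (0.000976 to 0.112), Adh4 without 6 h replicate 4 or control 1 (0.000615 to 0.118), and Tmem218 without 6 h replicate 2 or 4 or control 1 (0.0102 to 0.157). Baat differed by -0.77 (adjusted p = 0.0514), and Gpd1 by 0.39 with an adjusted p of 0.575.

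The lists differed in their counts as well, where 2.13% of all genes were higher at 6 h and 1.39% lower. Glucocorticoid-induced genes rose in 14 of 28 measured at 6 h, with a median of 1.15. Tat read 3519, 2475, 3055 and 5741 at 6 h and 1374, 435, 652 and 1087 in the long-course controls (2.08 ± 0.34, adjusted p = 0.000108), with no overlap. Sds, the serine dehydratase, differed by 4.39 at 6 h (adjusted p = 1.23e-05), where in the short course at 4 h it differed by 0.13 with overlapping groups. Amino acid breakdown genes rose in 8 of 42 with none lower, a median of 0.41. Chemokines, cytokines and inflammatory mediators rose in 2 of 45 (Nfkbia and Il1r1), with a median of -0.09, and neutrophil markers in 0 of 9. Fatty acid oxidation and ketogenesis had 1 fall of 37, and fatty acid and triglyceride synthesis had 2 rises and no fall of 27. With so low a share of all genes called at 6 h, such small counts do not show that a list failed to respond. A2m, at 4.14, Got1, at 2.89, Hmox1, at 2.06, and Por, at 1.88, passed in both courses in the same direction.

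**Figure D5:**
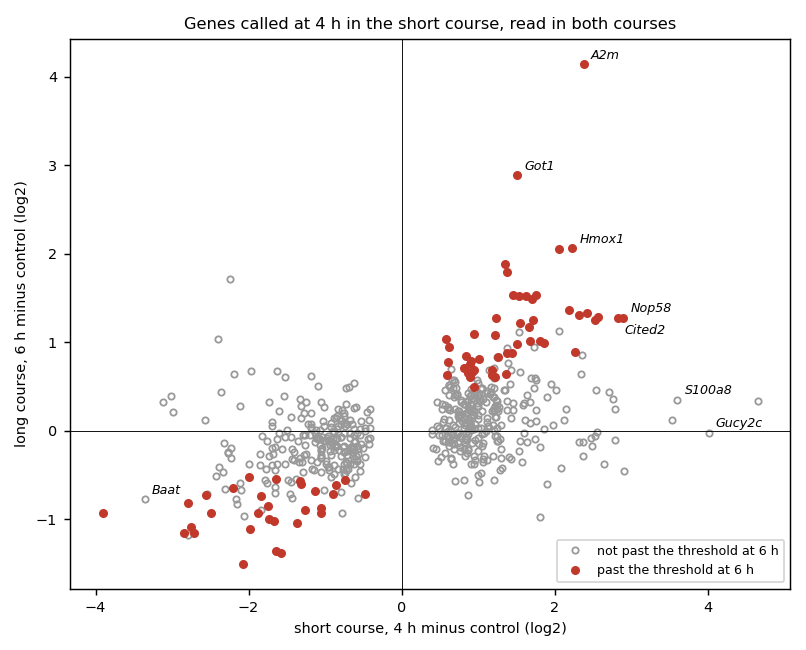
Each point is a gene past the threshold at 4 h in the short course, with its log2 difference at 4 h against control (horizontal) and its log2 difference at 6 h against control in the long course (vertical), filled where it also passed there. A2m, Got1, Hmox1, Nop58 and Cited2 lie high on both axes, while S100a8 and Gucy2c, far to the right, lie near 0 on the vertical axis, at 0.35 and -0.02.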

How the data were processed

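The authors deposited one signal intensity per probe set for each array. For the software behind these values, nothing is given in the sources used here. All 7 compared arrays have 2% trimmed means near 801, so values were used as scaled. The exception was 1 array at 6 h of the short course, deposited with a trimmed mean of 150.19, which was rescaled to the others. log2(signal + 32) was fitted for all 47 short-course arrays with a mean for each time in limma 3.58.1 (R 4.3.3; eBayes with a variance trend), with Benjamini-Hochberg adjustment over 8740 probe sets, control probe sets left out. The 44 long-course arrays were fitted alike, apart. Of the 8740 probe sets, 7006 carry 1 gene symbol in the platform annotation, 308 several and 1426 none, and none was named from several. No 2 arrays held identical values. The fit was tested on simulated data. Named genes were the 12 largest rises and falls past the threshold without overlap, Tat and Nr3c1, up to 4 members of each list with the largest changes in its direction, and 5 each way against 1 h and 8 h; other members named were chosen after their values were seen. The genes and lists were chosen with earlier results of these data known. Alternatives were the added constant, scaling, a filter on dim probe sets, array weights, no trend, fewer arrays, a replicate block and leaving out each array.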

Additional observations from a re-analysis of the deposited data

Results flagged for a closer look

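Tgm1 was marked because control 2, at 428, stood apart from controls 1, 3 and 4, at 7.99, 6.91 and 10.5. On the log2 scale its gap to the nearest control was 0.964 of the controls' whole range. Cited2 was marked in the same way, with control 1 at 1139 against 449, 503 and 453 in controls 2 to 4, a gap of 0.88 of the range. Chance marks about 1 in 20 groups. Gucy2c and Nop58 were marked because their difference from control was larger at 4 h than at 1 h, by 4.17 for Gucy2c and 2.09 for Nop58, in a test of the difference between the times. The Nop58 difference did not pass without 4 h replicate 1 or 2 or 1 h replicate 3, with an adjusted p of 0.0112 to 0.0878 over 6 left-out arrays.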

How the results depend on the processing

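The 1004 probe sets at 4 h against control (586 higher, 418 lower) were 619 (359 and 260) when only the 7 arrays were fitted, and leaving out single arrays gave 473 to 1233 in all, 305 to 735 higher and 168 to 498 lower. Deviations of same-numbered arrays correlated at -0.13, -0.215 and -0.094, and those of the other pairs at -0.075 to 0.212. Deviations from a mean of so few arrays cancel out within each group. These correlations therefore cannot decide whether the replicate numbers pair the arrays. With the replicate number as a block the count was 644 (367 higher, 277 lower). Besides calls described above, the block ended those of Gpam, Nsdhl, Mvk, Adra1b, Klf6 and Kynu, among others. Fitting only the 7 arrays ended those of Srebf1, Pdk4, Proc and Gbp2, among others. The 69 probe sets at 4 h against 1 h were 202 with array weights and 13 to 194 without single arrays. The 3 probe sets at 4 h against 8 h were 34 with array weights, 6 and 13 with the dimmest 30% and 50% left out, 6 with median centring or quantile normalization, and 0 to 10 without single arrays. The 464 probe sets at 6 h of the long course were 157 when only its 8 arrays were fitted and 257 to 475 without single arrays. The cause of these shifts was not tested, beyond the smaller number of arrays in some fits. No named gene that passed at 4 h changed sign under these alternatives, while the list medians for Kupffer cell, MHC class II, T and natural killer cell, adipocyte, cholangiocyte and hepatocyte markers and for insulin and growth hormone signalling, all near 0, did. Leaving out arrays at 1 h, 8 h and in the long course, and recounting the lists and their members, was added after seeing the data. Dim readings have no detection call, which limits the size of large changes.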
